A study of Mus musculus with 10 samples.

Results

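Direct antiviral effectors are proteins that act on a virus or on the nucleic acids and nucleotides it needs. The set described here holds 10 such genes, taken by symbol: Mx1, Mx2, Rsad2, Cmpk2, Bst2, Apobec3, Isg20, Samhd1, Zc3hav1 and Eif2ak2. Each of the 10 was found among the 18603 genes of the deposited counts, and all 10 were among the 15883 genes that passed the filter on low counts. They were measured by bulk RNA sequencing of whole tumours that RENCA, a mouse kidney cancer cell line, had formed under the skin of female Balb/c mice. One group of 5 tumours received SLR14, a ligand of RIG-I made of RNA folded into a triphosphorylated stem-loop and packed in lipid nanoparticles. The other 5 tumours received PBS, the vehicle, with no lipid carrier named for it, so the agonist and its carrier cannot be told apart. Injection began at a tumour volume of 100 to 150 mm3 and was given 3 times, 48 h apart, and tumours were taken 24 h after the last one. The implanted cells were 1 cell line, and the counts mix its RNA with that of the host cells in the tumour.

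RIG-I senses viral RNA in the cytosol and drives the making of type I interferons. These act through their receptor on a transcription factor complex that includes STAT2 and IRF9 and binds interferon-stimulated response elements (ISREs) near target genes. The effectors are classic targets of that complex and block different steps of a viral life cycle. Viperin (Rsad2) makes a nucleotide that, as shown for the human enzyme, ends viral RNA chains. Cmpk2 is a mitochondrial nucleotide kinase. The Mx proteins are dynamin-like GTPases that trap viral nucleocapsids. Tetherin (Bst2) holds budding virions at the cell surface. The remaining effectors edit, cut or bind viral nucleic acid or starve it of building blocks. In many inbred mouse strains, Balb/c among them, Mx1 lacks coding exons and gives no working protein, and Mx2 of common laboratory strains is also reported to be non-functional, so counts of both report transcription and not function.

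After SLR14, 5 of the 10 genes rose, 0 fell and 5 did not pass the test. Those that rose were Rsad2, Mx1, Mx2, Bst2 and Cmpk2, by 2.39-fold to 3.44-fold. The call was an adjusted p under 0.05 in edgeR's quasi-likelihood test, with Benjamini-Hochberg adjustment over all tested genes. By that rule 0.963% of the 15883 tested genes were called, 107 of them higher in SLR14 tumours, or 0.674%, and 46 lower, or 0.29%. DESeq2 called the same 5 genes of the set, where 1.35% of all genes it tested were higher. All 10 fold changes were positive, as were 48% of those of all tested genes. The median log2 fold change was 0.89 over the 10 genes and -0.01 over all tested genes. Levels are given as CPM, the reads of a gene relative to all reads of its tumour, scaled by the trimmed mean of M values and not by gene length, so they compare tumours and not genes. In RNA from whole tumours, more cells of a type and more RNA per cell cannot be told apart.

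**Figure D1:**
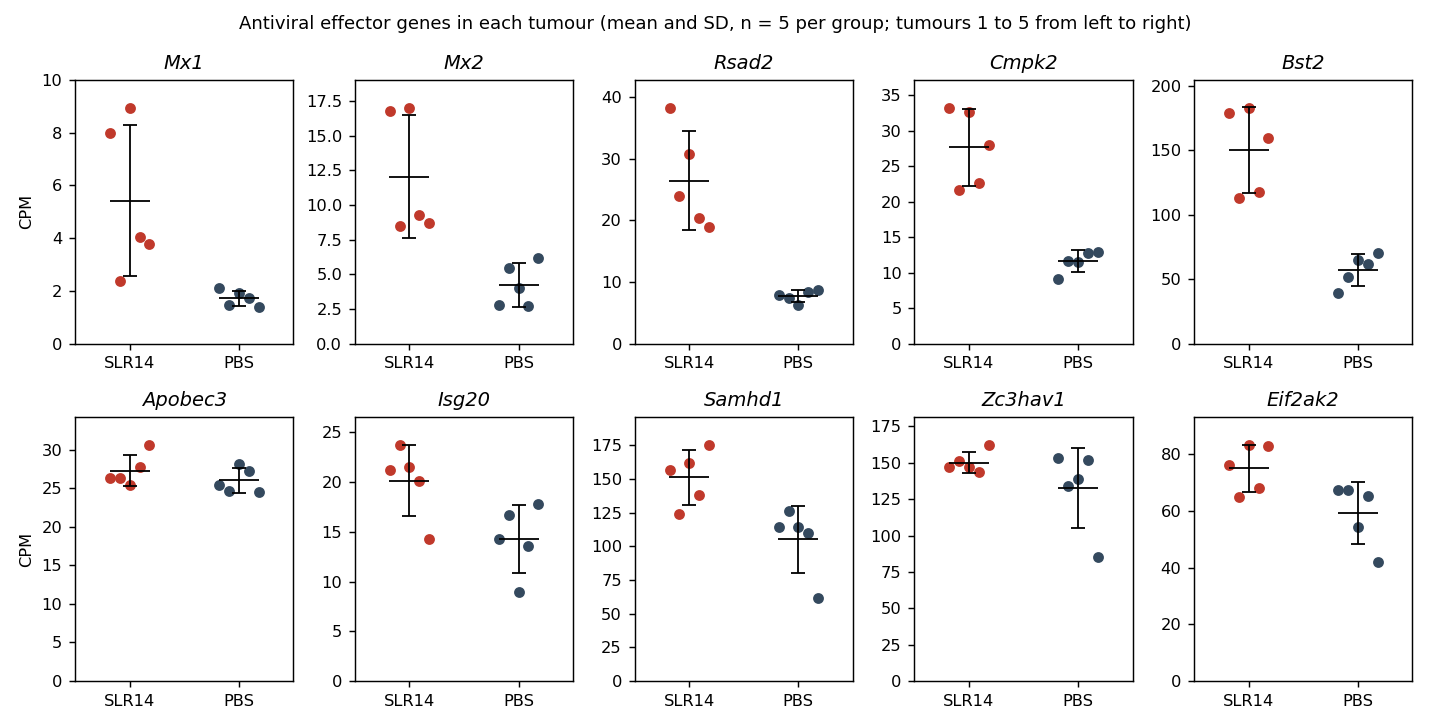
CPM of each of the 10 effector genes (y axis, from 0) in the 5 SLR14 tumours (red) and the 5 PBS tumours (dark blue), with 1 point per tumour in order of its number and the mean and SD as lines. In the top row each of the 5 genes has all SLR14 points above all PBS points, while in the bottom row the groups overlap for each gene.

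The promoters of these genes were looked at for the ISRE core, because the genes that rose and those that did not are all known as interferon targets. RefSeq windows on GRCm38.p6, 250 bases before to 50 bases after the annotated start, were matched by symbol for 8 of the 10 genes, in 11 windows. Mx1 and Mx2 had no entry. The ISRE core was searched as GAAANNGAAA and the gamma-activated site (GAS), another element of interferon-responsive genes, as TTCNNNGAA, each on both strands. Of 32851 windows of 300 bases, 3.44% held the ISRE core and 8.3% the GAS letters. Counted per gene, 3.99% and 9.55% of 27025 genes had them in at least 1 window. The ISRE core was present for 4 of the 8 genes, which were Rsad2, Bst2, Apobec3 and Eif2ak2. The GAS letters were present for 4 of the 8, which were Bst2, Samhd1, Isg20 and Eif2ak2. Shown 5′ to 3′ along each gene are the 250 bases before the start of the neighbouring pair Rsad2 (chr12:26456453-26456702, minus strand) and Cmpk2 (chr12:26468965-26469214, plus strand), of Bst2 (chr8:71537473-71537722, minus strand) and of the first of 2 starts of Apobec3 (chr15:79892158-79892407, plus strand). They are shown because the first 3 genes rose and the last did not pass, and capitals mark the ISRE core or GAS letters.
Rsad2: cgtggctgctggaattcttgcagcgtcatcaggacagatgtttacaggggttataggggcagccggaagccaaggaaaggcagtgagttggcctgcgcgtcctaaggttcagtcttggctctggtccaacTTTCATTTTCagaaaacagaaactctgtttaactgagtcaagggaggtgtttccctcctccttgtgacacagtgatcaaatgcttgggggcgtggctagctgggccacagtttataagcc
Cmpk2: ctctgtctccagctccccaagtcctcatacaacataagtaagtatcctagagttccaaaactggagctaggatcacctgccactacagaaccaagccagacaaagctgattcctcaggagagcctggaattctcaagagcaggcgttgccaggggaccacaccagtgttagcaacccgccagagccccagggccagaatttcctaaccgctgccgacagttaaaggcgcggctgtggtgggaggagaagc
Bst2: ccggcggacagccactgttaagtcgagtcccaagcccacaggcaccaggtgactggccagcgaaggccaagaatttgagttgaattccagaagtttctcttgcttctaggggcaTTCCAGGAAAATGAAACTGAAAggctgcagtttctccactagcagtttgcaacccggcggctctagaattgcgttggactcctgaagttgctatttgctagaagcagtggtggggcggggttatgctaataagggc
Apobec3: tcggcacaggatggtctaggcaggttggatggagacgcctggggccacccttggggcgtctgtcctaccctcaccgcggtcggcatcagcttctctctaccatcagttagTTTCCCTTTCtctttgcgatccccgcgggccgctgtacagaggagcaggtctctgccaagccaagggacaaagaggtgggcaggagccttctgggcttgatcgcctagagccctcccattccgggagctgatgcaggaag
For Eif2ak2, which did not pass, the ISRE core lay just after the annotated start, and 30 bases around it are shown (chr17:78882535-78882564, minus strand).
Eif2ak2: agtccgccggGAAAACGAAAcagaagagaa

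The core was found beside genes that rose and beside genes that did not pass. Bst2 held 2 ISRE cores that overlap each other, GAAAATGAAA and GAAACTGAAA, the first of them starting 130 bases before the annotated start. The GAS letters TTCCAGGAA in Bst2 overlap the first of these cores. Rsad2 held 1 core on the opposite strand, starting 120 bases before the start. Cmpk2 held neither motif in its window and was called, while Apobec3 and Eif2ak2 held the core and were not. Rsad2 and Bst2 held the core and were called. Samhd1, Isg20 and Zc3hav1 lacked the core and were not called, and Zc3hav1 held neither motif. A match describes letters only, and a window without one says nothing about sites elsewhere.

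Rsad2 and Cmpk2, which lie side by side on chromosome 12 and both act on nucleotides, had the smallest p-values of the set. Rsad2 (ENSMUSG00000020641), the gene of viperin, had 38.2, 23.9, 30.7, 20.4 and 18.9 CPM in SLR14 tumours 1 to 5, against 7.84, 7.46, 6.18, 8.29 and 8.64 CPM in PBS tumours 1 to 5. The lowest SLR14 tumour stood 2.19-fold above the highest PBS tumour, the widest gap among the 10 genes. Rsad2 averaged 26.4 ± 8 CPM in SLR14 and 7.68 ± 0.949 CPM in PBS tumours (SD, n = 5 each). Its log2 fold change was 1.78 (SE 0.19, edgeR adjusted p = 0.000493). Cmpk2 (ENSMUSG00000020638), the mitochondrial UMP-CMP kinase, had 33.2, 21.7, 32.7, 22.7 and 28.0 CPM in SLR14 tumours, against 9.09, 11.7, 11.5, 12.8 and 12.9 CPM in PBS tumours. No SLR14 value fell into the PBS range, and the lowest stood 1.68-fold above it. Its log2 fold change was 1.26 (SE 0.15, edgeR adjusted p = 0.000786).

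Rsad2 rose by more than Cmpk2 in a test of their ratio, though most fits without 1 tumour missed the threshold. The log2 ratio of Rsad2 to Cmpk2 counts within a tumour was 0.20, 0.14, -0.09, -0.15 and -0.57 in SLR14 tumours 1 to 5, against -0.21, -0.65, -0.89, -0.62 and -0.58 in PBS tumours 1 to 5. In 4 of 5 SLR14 tumours it was above the highest PBS tumour, and SLR14 5 lay within the PBS range. The mean ratio was -0.09 ± 0.30 in SLR14 and -0.59 ± 0.24 in PBS tumours (SD, n = 5 each), a difference of 0.50 (two-sided exact permutation test, p = 0.0159, adjusted over 2 gene pairs 0.0317). With 1 tumour left out, the adjusted exact permutation p stayed under 0.05 without SLR14 5 or without PBS 1. Leaving out any 1 of the other 8 tumours gave 0.0794 to 0.0952, with a difference of 0.42 to 0.51. Fewer tumours leave fewer assignments, so the exact permutation p can rise with little change in the difference.

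Both Mx genes rose, with a wide spread among treated tumours. Mx1 (ENSMUSG00000000386), whose product, where functional, acts in the nucleus, had 8, 2.38, 8.93, 4.03 and 3.76 CPM in SLR14 tumours, against 2.09, 1.46, 1.92, 1.71 and 1.39 CPM in PBS tumours. SLR14 2 lay only 1.14-fold above the highest PBS tumour, while SLR14 1 and 3 stood apart at the top. The coefficient of variation of Mx1 was 53% among SLR14 tumours, the highest of the 10 genes, and 17.3% among PBS tumours. It was also the lowest of the set in reads, with 36 to 352 counts per tumour. Its log2 fold change was 1.67 (SE 0.32, edgeR adjusted p = 0.0267). Mx2 (ENSMUSG00000023341), whose product, where functional, acts in the cytoplasm, had 16.8, 8.45, 17.0, 9.27 and 8.71 CPM in SLR14 tumours, against 2.79, 5.46, 4.03, 2.69 and 6.20 CPM in PBS tumours. Again SLR14 1 and 3 were high, and no treated value fell below 6.20 CPM, the PBS maximum. Its log2 fold change was 1.51 (SE 0.28, edgeR adjusted p = 0.0241).

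The calls of the Mx genes did not hold in every fit that left out 1 tumour. Mx1 lost its call without SLR14 1, SLR14 3, PBS 1, PBS 2, PBS 3 or PBS 4 (edgeR adjusted p 0.0572 to 0.0839), and in limma voom (adjusted p = 0.0647). Mx2 lost its call without SLR14 1, SLR14 3, PBS 1 or PBS 3 (edgeR adjusted p 0.0632 to 0.0742). The log2 ratio of Mx1 to Mx2 counts was -1.24 ± 0.34 in SLR14 and -1.22 ± 0.75 in PBS tumours (SD, n = 5 each), and no difference was detected (difference -0.02, two-sided exact permutation test, p = 0.976, adjusted over 2 pairs 0.976). In PBS tumours this ratio ranged from -2.12 to -0.41, so the comparison could show only a large difference. The paralogs are alike in sequence. Single values are uncertain to the extent that reads matching both were split, and the counting rule is not given in the sources used here.

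**Figure D2:**
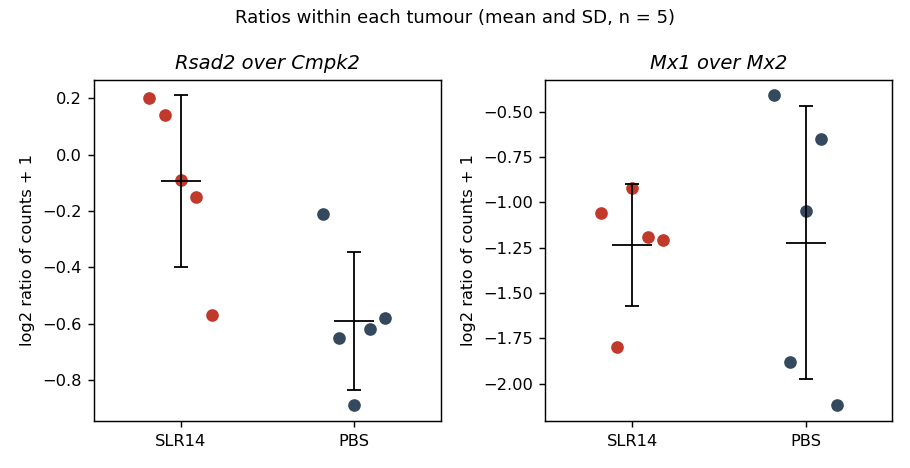
Log2 ratio of counts plus 1 (y axis) of Rsad2 over Cmpk2 (left) and of Mx1 over Mx2 (right) in each SLR14 tumour (red) and each PBS tumour (dark blue), with the mean and SD as lines. For Rsad2 over Cmpk2, 4 of 5 SLR14 points lie above all PBS points, and for Mx1 over Mx2 the SLR14 points lie inside the PBS range.

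Bst2 (ENSMUSG00000046718), the gene of tetherin, had 179, 113, 183, 118 and 160 CPM in SLR14 tumours 1 to 5, against 39.1, 51.4, 64.7, 61.6 and 70.2 CPM in PBS tumours 1 to 5. All 5 treated tumours were above all 5 PBS tumours, the lowest of them by 1.61-fold. Its counts were deep, 1121 to 7192 per tumour, and its log2 fold change was 1.39 (SE 0.18, edgeR adjusted p = 0.00205). Bst2 is also a marker of plasmacytoid dendritic cells in mice. Of the other markers listed for those cells, Siglech and Ccr9 were under 1 CPM in every tumour. Tcf4, which other cells use too, took nearly all of the summed level of that list, 69.3 to 78.2 CPM in SLR14 and 48.7 to 80.2 CPM in PBS tumours. Klk1 was not analysed here.

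Samhd1, which breaks down the deoxynucleotides that reverse-transcribing and DNA viruses need, did not pass. Samhd1 (ENSMUSG00000027639) had 157, 124, 162, 138 and 175 CPM in SLR14 tumours, against 114, 126, 114, 110 and 61.6 CPM in PBS tumours. In 4 of 5 SLR14 tumours it was above every PBS tumour, and SLR14 2 fell just below PBS 2. PBS 5 stood far under the other PBS tumours. The log2 fold change was 0.52 (SE 0.17, 2 SE either side 0.19 to 0.86, edgeR unadjusted p = 0.00765, adjusted p = 0.235). Without PBS 5 it was 0.38, the lowest value with 1 tumour left out, at an edgeR adjusted p of 0.0926. Without both PBS 5 and SLR14 2 it was 0.44 and passed (edgeR adjusted p = 0.0207). Leaving out SLR14 2 removed the only treated value inside the PBS range, so this pass adds no support.

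Isg20, an exonuclease that cuts single-stranded RNA, also had higher values in most treated tumours without a call. Isg20 (ENSMUSG00000039236) had 21.2, 23.7, 21.5, 20.1 and 14.3 CPM in SLR14 tumours, against 14.3, 16.7, 8.94, 13.6 and 17.8 CPM in PBS tumours. SLR14 5 lay in the middle of the PBS range, and the other 4 SLR14 tumours were above it. The log2 fold change was 0.50 (SE 0.18, 2 SE either side 0.14 to 0.86, edgeR unadjusted p = 0.0149, adjusted p = 0.317). Of its neighbouring gene Aen, a related exonuclease, the levels were 29.0 ± 3.15 CPM in SLR14 and 29.3 ± 3.41 CPM in PBS tumours (SD, n = 5 each; log2 fold change -0.01, SE 0.11, edgeR adjusted p = 0.972).

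Both sensors of foreign RNA in the set overlapped between groups. Eif2ak2 (ENSMUSG00000024079) encodes PKR, a kinase that stops translation when it binds double-stranded RNA. It had 76.0, 65.0, 83.1, 68.0 and 82.8 CPM in SLR14 tumours, against 67.3, 67.3, 54.3, 65.2 and 42.1 CPM in PBS tumours. SLR14 2 fell under 3 PBS tumours, and the other 4 SLR14 tumours were above all of them. The log2 fold change was 0.34 (SE 0.13, 2 SE either side 0.08 to 0.61, edgeR unadjusted p = 0.023, adjusted p = 0.369). Zc3hav1 (ENSMUSG00000029826) encodes ZAP, which binds CpG-rich RNA and brings about its decay. It had 147, 151, 147, 144 and 162 CPM in SLR14 tumours, against 153, 134, 139, 152 and 85.2 CPM in PBS tumours. Only SLR14 5 was above the PBS range, and PBS 5 was again far below its group. The log2 fold change was 0.18 (SE 0.14, edgeR adjusted p = 0.645), with 2 SE either side reaching from -0.10 to 0.46. Without PBS 5 the value was 0.05 (edgeR adjusted p = 0.844).

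Apobec3, a cytidine deaminase that mutates retroviral DNA, had the smallest difference of the set. Apobec3 (ENSMUSG00000009585) had 26.3, 26.3, 25.5, 27.8 and 30.6 CPM in SLR14 tumours, against 25.4, 24.7, 28.2, 27.3 and 24.6 CPM in PBS tumours. SLR14 5 was above every PBS tumour, the other 4 SLR14 tumours lay within the PBS range, and the spread within a group was small, with a coefficient of variation of 7.4% in SLR14 and 6.21% in PBS tumours. The log2 fold change was 0.07 (SE 0.09, edgeR adjusted p = 0.77), with 2 SE either side reaching from -0.10 to 0.24, so the interval holds no change and ends far below the 1.26 of Cmpk2. Its relative Apobec1, an RNA-editing deaminase, had 45.2 ± 9.66 CPM in SLR14 and 31.6 ± 1.98 CPM in PBS tumours (SD, n = 5 each; log2 fold change 0.52, SE 0.14, edgeR adjusted p = 0.116). It passed without SLR14 2 (edgeR adjusted p = 0.0188).

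The 5 genes that rose ranked the treated tumours alike. For each of them, SLR14 1 and SLR14 3 were the highest pair of the 5 SLR14 tumours. SLR14 2 was the lowest for 4 of the 5, and SLR14 5 was the lowest for Rsad2. Among the 5 genes that did not pass, SLR14 5 was the highest for 3, and SLR14 1 was the highest for 0. SLR14 1 and SLR14 3 were also the most similar pair of libraries within a group over all genes. Their chi-square per degree of freedom was 8.15, where the 20 within-group pairs ranged from 8.15 to 146. The pairs with PBS 5 gave 103 to 146, and no other pair was above 41.8. On the PBS side, PBS 5 was the highest for 4 of the 5 genes that rose and the lowest for 4 of the 5 that did not pass. All SLR14 values lay above all PBS values for 5 of the 10 genes and below them for 0, beside 1.92% and 1.32% of all tested genes.

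**Figure D3:**
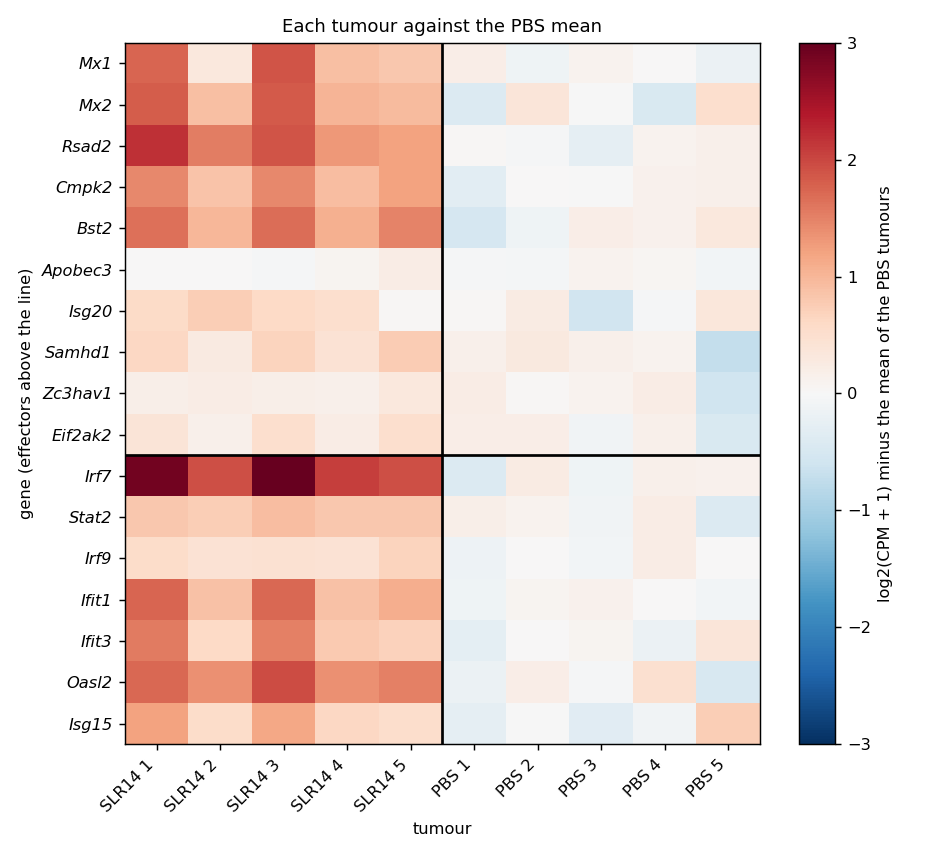
Log2(CPM + 1) minus the mean of the 5 PBS tumours (colour) for the 10 effectors above the line and 7 related interferon genes below it, in SLR14 tumours 1 to 5 (left) and PBS tumours 1 to 5 (right). SLR14 1 and SLR14 3 have the deepest red for Mx1, Mx2, Rsad2, Cmpk2, Bst2, Irf7, Ifit1, Ifit3, Oasl2 and Isg15. PBS 5 is blue for Samhd1, Zc3hav1 and Eif2ak2.

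Tested genes outside the set were ranked by how like this pattern they were. Likeness was the root mean square distance between standardised log2(CPM + 1) profiles over the 10 tumours, set against the mean profile of the 5 genes that rose, with a median of 1.41 over all other tested genes. The nearest were Irf7, which amplifies type I interferon production, at 0.152, Ifit1, which binds viral RNA caps, at 0.154, Ifi44 at 0.179, Ddx60 at 0.193 and Ifit3 at 0.223. Irf7 had 280, 143, 297, 156 and 142 CPM in SLR14 tumours, against 27.4, 43.1, 33.4, 40.9 and 40.0 CPM in PBS tumours. Ifit1 had 14.2, 7.38, 14.0, 7.39 and 8.66 CPM in SLR14 and 3.14, 3.84, 4.00, 3.56 and 3.29 CPM in PBS tumours. Since these genes were picked for that likeness, their order of tumours is a description only.

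Upstream of the effectors, 3 of 10 interferon signalling genes rose, 0 fell and 7 did not pass, with a median log2 fold change of 0.20. They were Irf7 with a log2 fold change of 2.46 (SE 0.23, edgeR adjusted p = 0.000396), Stat2 with 0.81 (SE 0.12, edgeR adjusted p = 0.00482) and Irf9 with 0.52 (SE 0.09, edgeR adjusted p = 0.0214). Stat2 and Irf9 encode subunits of the ISRE-binding complex. Stat2 had 172 ± 8.09 CPM in SLR14 and 98.2 ± 16.9 CPM in PBS tumours (SD, n = 5 each), a narrow spread among treated tumours beside that of Irf7, 204 ± 77.7 CPM. Ifnar2, a subunit of the receptor, had a log2 fold change of 0.25 (SE 0.09, edgeR adjusted p = 0.318). Irf9 lost its call without SLR14 1, SLR14 3, SLR14 5, PBS 1, PBS 2 or PBS 3 (edgeR adjusted p 0.0524 to 0.0712).

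Among 15 other antiviral effector genes, 8 rose, 0 fell and 7 did not pass, with a median log2 fold change of 0.84. Oasl2, an oligoadenylate synthetase-like protein, had 49.5 ± 9.21 CPM in SLR14 and 16.1 ± 4.31 CPM in PBS tumours (SD, n = 5 each; log2 fold change 1.62, edgeR adjusted p = 0.000687). Ifitm3, which blocks viral entry at membranes, had 304 ± 38.9 CPM in SLR14 and 145 ± 20.4 CPM in PBS tumours (log2 fold change 1.07, edgeR adjusted p = 0.000768). Oas2, Oas3 and Oasl1 rose too, with log2 fold changes of 1.51, 1.02 and 0.87, as did Ifit1 with 1.54. Mov10, an RNA helicase, and Isg15, a ubiquitin-like modifier, did not pass (log2 fold changes 0.59 and 0.81, edgeR adjusted p = 0.0547 and 0.122) and both passed without PBS 5 (edgeR adjusted p = 0.00623 and 0.00562). The other calls were Ifit3 and, named after its values were seen, Oas1a. Ifit3 (log2 fold change 1.18) lost its call without SLR14 1, SLR14 3 or any of PBS 1 to 4 (edgeR adjusted p 0.0542 to 0.0757). Oas1a (0.84) was called with 1 tumour left out where that was SLR14 2 or PBS 5, and missed the threshold in the other 8 such fits (edgeR adjusted p 0.0515 to 0.123).

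**Figure D4:**
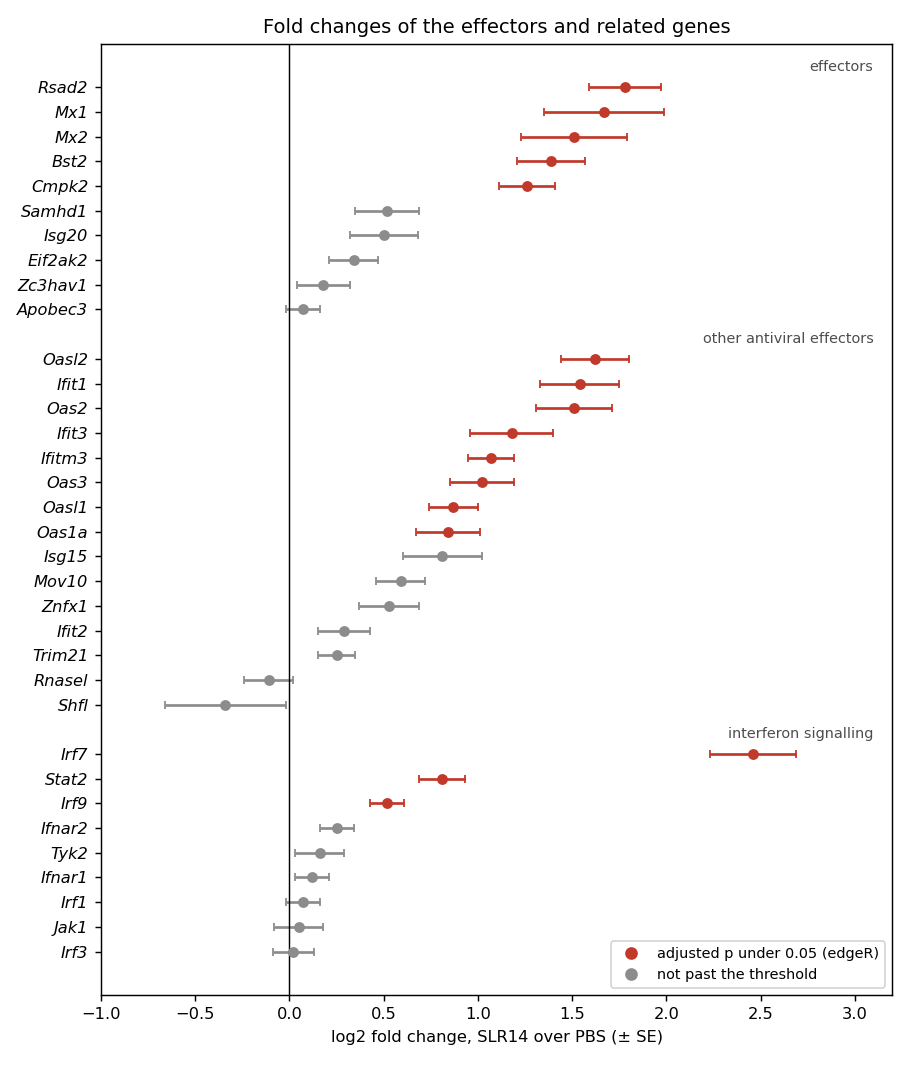
Log2 fold change of SLR14 over PBS with its SE (x axis) for the 10 effectors, 15 other antiviral effectors and 9 interferon signalling genes, red where the edgeR adjusted p was under 0.05 and grey where it was not. The red points number 5, 8 and 3 in the 3 groups from top to bottom.

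Among partners and relatives of the effectors, no gene passed. Of 9 genes that work with PKR or ZAP, 0 passed, and the median log2 fold change was 0.07. Adar, which edits double-stranded RNA and so restrains PKR, came closest with 95.6 ± 8.13 CPM in SLR14 and 64.7 ± 11.4 CPM in PBS tumours (SD, n = 5 each; log2 fold change 0.56, SE 0.12, edgeR adjusted p = 0.0508). It passed without PBS 4 or PBS 5 (edgeR adjusted p 0.0171 to 0.0338). Trim25, a cofactor of ZAP and of RIG-I, had a log2 fold change of 0.29 (SE 0.10, edgeR adjusted p = 0.261). Of the 16 family relatives of the effectors 15 were tested and 0 passed, with a median log2 fold change of 0.03. Parp12, a relative of ZAP, had a log2 fold change of 0.40 (SE 0.10, edgeR adjusted p = 0.113). The other kinases of PKR's substrate, Eif2ak1, Eif2ak3 and Eif2ak4, had log2 fold changes of 0.03, 0.15 and -0.01. Zc3hav1l, which lies next to Zc3hav1, had 0.18 (SE 0.16, edgeR adjusted p = 0.695), the same value as its neighbour.

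Genes of nucleotide supply, the pathway that Cmpk2 and Samhd1 bear on, did not pass either, with 0 of 9 called and a median log2 fold change of 0.00. Cmpk1, the cytosolic relative of Cmpk2, had 86.6 ± 6.51 CPM in SLR14 and 111 ± 35.1 CPM in PBS tumours (SD, n = 5 each; log2 fold change -0.36, SE 0.17, edgeR adjusted p = 0.454). Rrm2b, a ribonucleotide reductase subunit, had a log2 fold change of -0.17 (SE 0.12, edgeR adjusted p = 0.622). Over the lists of partners, relatives and nucleotide supply, the genes with an unadjusted edgeR p under 0.05 were Adar, Trim25, Parp12, Apobec1 and Cmpk1, the last of which is on 2 lists. DESeq2 called Adar, Parp12 and Apobec1, and limma voom called 0.

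Markers of the cells in the tumour were set beside these results. The summed level of 4 general leukocyte genes was 304 to 371 CPM in SLR14 and 255 to 317 CPM in PBS tumours, and that of 6 macrophage genes was 2115 to 2972 CPM in SLR14 and 2270 to 2625 CPM in PBS tumours. Both lists overlapped between groups, the leukocyte list only through SLR14 2, at 304 CPM. Of their 10 genes 0 were called by edgeR, by limma voom or by DESeq2, while 2 leukocyte genes had an unadjusted edgeR p under 0.05. The 5 neutrophil genes summed to 16.1 to 46.5 CPM in SLR14 and 10.6 to 15.7 CPM in PBS tumours, without overlap. Of the 4 neutrophil genes tested 2 rose, S100a8 and S100a9, and limma voom called 0 (adjusted p = 0.0521 and 0.135). DESeq2 called S100a8, S100a9 and Cxcr2. Cxcr2 did not pass in edgeR (log2 fold change 1.41, SE 0.36, edgeR unadjusted p = 0.00179, adjusted p = 0.111). S100a8 kept its edgeR call in all 10 fits without 1 tumour. S100a9 lost its call without SLR14 1, SLR14 4 or any of PBS 1 to 4 (edgeR adjusted p 0.0621 to 0.0844). The 5 T cell genes summed to 5.66 to 14.5 CPM in SLR14 and 6.04 to 17.3 CPM in PBS tumours, most of it Cd4. Of the 3 T cell genes tested 0 passed in edgeR, and they differed in direction. Cd4 was lower on average after SLR14, with 6.41 ± 2.33 CPM in SLR14 and 9.56 ± 3.74 CPM in PBS tumours (SD, n = 5 each; log2 fold change -0.58, SE 0.28, edgeR adjusted p = 0.483). Cd3e, a chain of the T cell receptor complex, had 1.15 ± 0.531 CPM in SLR14 and 0.183 ± 0.226 CPM in PBS tumours (SD, n = 5 each), without overlap (log2 fold change 2.57, SE 0.62, edgeR adjusted p = 0.0791). Cd8a had 1.1 ± 0.715 CPM in SLR14 and 0.24 ± 0.203 CPM in PBS tumours (log2 fold change 2.15, SE 0.55, edgeR adjusted p = 0.111). Both had an unadjusted edgeR p under 0.05 and passed without PBS 4 (edgeR adjusted p = 0.011 and 0.0376). DESeq2 called both, and limma voom called Cd3e. Klrk1, a receptor of NK cells, had a log2 fold change of 1.00 (SE 0.38, edgeR adjusted p = 0.358). The part of neutrophil, T cell and NK cell markers in the rises of the effectors was not tested. Among treated tumours, SLR14 2 had the highest neutrophil sum and the lowest level of Mx1, Mx2, Cmpk2 and Bst2, but not of Rsad2. SLR14 1, in the highest pair for all 5 genes that rose, had the highest leukocyte, T cell and NK cell sums (371, 14.5 and 2.42 CPM). SLR14 3, the other of that pair, had the lowest T cell sum, 5.66 CPM. The 4 fibroblast genes also summed highest among treated tumours in SLR14 1, at 1053 CPM, and lowest in SLR14 2, at 331 CPM. SLR14 3 was at 751 CPM, and PBS tumours were at 523 to 2338 CPM. Of these 4 genes 0 were called, with a median log2 fold change of -0.78. The 4 dendritic cell genes summed to 0.655 to 0.986 CPM in SLR14 and 3.09 to 6.05 CPM in PBS tumours, without overlap. The separation came from Cd209a, since the other 3 summed to 0.536 to 0.826 CPM in SLR14 and 0.264 to 2.61 CPM in PBS tumours. Cd209a fell (log2 fold change -4.36, SE 0.36, edgeR adjusted p = 0.000129). The 5 epithelial genes listed for the renal cancer cells, Krt8 and Krt18 foremost, summed to 2429 to 2885 CPM in SLR14 and 2024 to 2729 CPM in PBS tumours. Among them Lcn2 rose and Epcam fell. Epcam was at 0.617 ± 0.502 CPM in SLR14 and 3.45 ± 1.62 CPM in PBS tumours (SD, n = 5 each), and lost its call without any of SLR14 1 to 4, PBS 1, PBS 3 or PBS 4 (edgeR adjusted p 0.0547 to 0.0936). PBS 5 had an erythroid sum of 152 CPM, against 36.9 to 52.6 CPM in the other PBS tumours, and SLR14 2 had a skeletal muscle sum of 0.238 CPM, against 77.1 to 172 CPM in the other SLR14 tumours.

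The calls of Rsad2, Cmpk2 and Bst2 held in all 10 fits that left out 1 tumour. The highest edgeR adjusted p in those fits was 0.00283 for Rsad2, 0.00439 for Cmpk2 and 0.0104 for Bst2. Their log2 fold changes ranged from 1.61 to 1.89, from 1.18 to 1.34 and from 1.28 to 1.48. None of Samhd1, Isg20, Eif2ak2, Zc3hav1 and Apobec3 passed in any of the 10 fits.

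**Figure D5:**
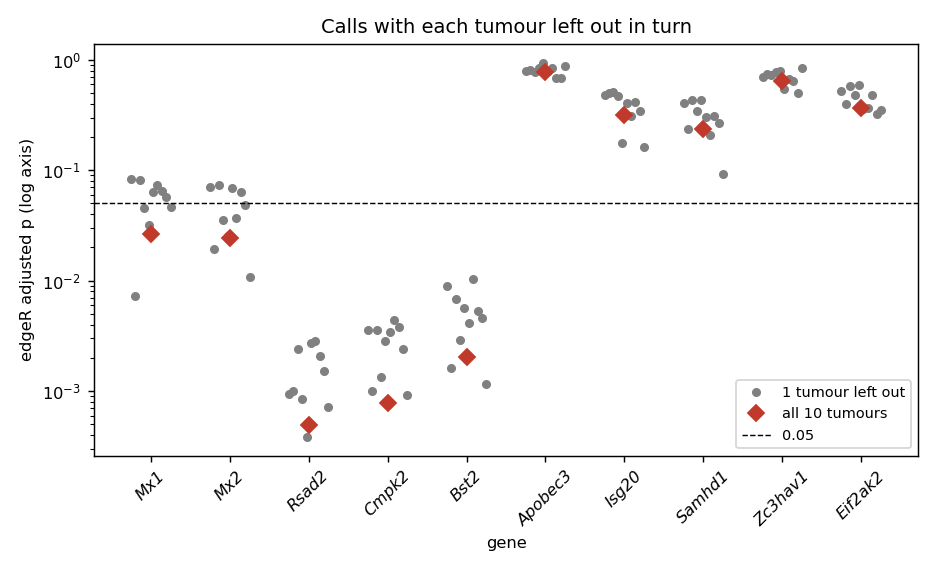
Adjusted p of edgeR's quasi-likelihood test (y axis, log scale) for each of the 10 effector genes with all 10 tumours (red diamonds) and with each tumour left out in turn (grey points), with the threshold of 0.05 as a dashed line. The grey points of Rsad2, Cmpk2 and Bst2 all lie below the line, those of Mx1 and Mx2 lie on both sides, and those of the other 5 genes lie above it.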

How the data were processed

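Total RNA of 10 tumours was depleted of ribosomal RNA, enriched with oligo(dT) beads and copied with random primers, per the labels' protocols. The submitters' processing notes name the mm39 build, the aligner STAR, DESeq2 1.36.0 and, for trimming, Trim Galore 0.6.7. Which program counted reads, with which strand option and gene models, is not given in the sources used here. The deposited table holds raw counts per gene for each tumour. A second deposited table, the same counts divided by 1 factor per tumour, was not used.

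Groups came from sample titles. Total counts were 17931895 to 39842608 in SLR14 and 24161644 to 34024137 in PBS tumours, and the 10 genes had 36 to 7192 counts per tumour. Libraries differed beyond counting noise, and none was treated as a duplicate. Rows without a symbol, 74 with 0.0295% of counts, have gene identifiers and were kept.

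Genes were filtered with filterByExpr (minimum count 10) and tested with edgeR 4.0.16 (TMM, glmQLFit, glmQLFTest, no covariate) in R 4.3.3. An SE is the absolute log2 fold change divided by the square root of F. Log2 ratios used counts plus 1. Alternatives were DESeq2 1.42.0, limma 3.58.1 voom, other factors and filters, leaving out tumours and a replicate term. The fitting was tested on simulated data. The gene set, the lists and the rule for named genes were chosen with earlier results of these data known. Named were all 10 genes, up to 6 called and the next 2 genes of each list, and the 5 nearest profiles. Neighbouring or related genes outside that rule (Aen, Zc3hav1l, Eif2ak1, Eif2ak3, Eif2ak4, Oas1a) and single markers were named after their values were seen. One further gene of a list is not reported here. Symbols are those of the deposited table. Promoter sequences are RefSeq's on GRCm38.p6, matched by symbol, and no coordinate was taken across builds.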

Additional observations from a re-analysis of the deposited data

Results flagged for a closer look

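Levels of the 10 genes and the 2 within-tumour ratios were checked in each group of 5, 24 groups in all, for 1 tumour far from the other 4. Chance gives about 1 in 20 such groups, and 2 were found, both in PBS 5. The checks share the same tumours and so are not independent. Samhd1 was at 61.6 CPM in PBS 5 and at 110 to 126 CPM in the other PBS tumours, the gap being 0.744 of the whole range. Zc3hav1 was at 85.2 CPM in PBS 5 and at 134 to 153 CPM in the other PBS tumours, a gap of 0.716 of the range. The critical value for 5 samples is 0.71. PBS 5 was also the lowest PBS tumour for Eif2ak2, at 42.1 CPM, and had the highest erythroid sum. Over all genes its library was the least like the others of its group, with a chi-square per degree of freedom of 103 to 146.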

How the results depend on the processing

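Over the 18 alternatives, the log2 fold changes of the 10 genes were positive throughout, and 167 of 180 fits gave the same side of the threshold. The 12 lost calls were all of Mx1 or Mx2, and the 1 gained was Samhd1 without PBS 5 and SLR14 2 together. DESeq2 size factors, upper-quartile factors, no low-count filter, a filter of 1 CPM in 5 samples and DESeq2 itself kept the same 5 genes called. Over all genes, DESeq2 called 407, against 153 in edgeR, and leaving out 1 tumour gave 69 to 194. Of the 10 effectors, 3 to 5 were called with 1 tumour left out, the 3 being Rsad2, Cmpk2 and Bst2 without SLR14 1, SLR14 3, PBS 1 or PBS 3. With the replicate number as a block, edgeR called 78 genes in all and 4 of the effectors, Mx2 having an adjusted p of 0.0848. Deviations of same-numbered tumours correlated at -0.25 to 0.138 over the 5 pairs, and 0 of 5 SLR14 tumours matched best with its own number. This check showed no pairing by number, but it cannot exclude that same-numbered tumours were handled together. The difference in the Rsad2 to Cmpk2 log2 ratio was 0.42 to 0.62 with 1 tumour left out and 0.44 without PBS 5 and SLR14 2 (exact permutation p = 0.0571, adjusted 0.114). For Mx1 to Mx2 it was -0.24 to 0.19 with 1 tumour left out, either side of 0. Fewer samples leave fewer assignments in the exact test, and the cause of the other changes was not tested. Mx1 had the fewest counts of the effectors, 36 to 352 per tumour. Separate animals gave each tumour, and p-values rate the group difference against the spread between them.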
